A study of Ovis aries with 32 samples.

Results

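The genes of membrane transport were taken as every probe of the sheep array whose gene name begins with the family names of the solute carriers (SLC), the ion pumps (ATP1A, ATP1B, ATP2), the aquaporins (AQP), the potassium, sodium and calcium channels (KCN, SCN, CACN), the ryanodine receptors (RYR), the uncoupling proteins (UCP) or the ABC exporters. This rule found 38 genes measured by 53 probes, of 14351 distinct gene names or accessions and 15008 probes in all, and used no measured value. Of these, 33 probes of 26 genes belong to the SLC families, 12 probes of 7 genes to the aquaporins, 3 probes of 2 genes to the ABC exporters, and 2 probes each to KCNK3 and UCP3. No probe carries a name of the calcium pumps, the sodium or calcium channels or the ryanodine receptors, so 0 probes of these families were measured under their names. Most names on this array are accessions of sequence tags, and a transport gene listed under an accession is not found by this rule. One name, SLC9A3R1, was found by its first letters only: it is a scaffold protein that binds a sodium-hydrogen exchanger and is not itself a carrier.

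RNA from the left ventricular free wall (LV) and the interventricular septum (IVS) of lambs aged 14 days was hybridized to 32 arrays. Each tissue had 8 lambs of untreated ewes (Control) and 8 lambs of ewes that received cortisol (CORT) at 0.5 mg/kg/day in overnight infusions from day 115 of gestation until delivery. The infusion was given to the mother, the Control ewes had catheters but no infusion, and lambs of both sexes were included. A set of twins was born in each group of ewes. The study counts no more Control lambs born than the 8 used, so both Control twins were among them, and CORT lambs may share a mother too. The tests within a tissue treat all lambs as independent. The LV and IVS were dissected from the same hearts, but the labels do not tie an LV array to the IVS array of its lamb, and the tests between tissues treat all arrays as independent.

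Heart muscle depends on a small number of transport steps. Ion pumps keep the gradients on which the action potential and calcium extrusion rest, and background potassium channels such as KCNK3 hold the resting potential. Glucose and lactate enter through carriers of the SLC2 and SLC16 families, and most SLC25 carriers pass nucleotides, acylcarnitines, cofactors and other molecules across the inner mitochondrial membrane. Aquaporins carry water, and in the heart AQP1 is known from the endothelium of small vessels and from red cells.

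The value of a member is the intensity of a 60-base probe, and 15 of the 38 genes have 2 probes, named here (1) and (2) in the order of their probe identifiers. The probes shown here are those on which the results turn. For AQP1 and UCP3 both probes carry the same 59 bases, shifted by 1 base, and the capital letter marks the base outside the shared stretch.
AQP1 (1): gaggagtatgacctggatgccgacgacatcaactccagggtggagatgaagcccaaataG
AQP1 (2): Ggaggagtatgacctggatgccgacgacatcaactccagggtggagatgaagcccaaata
UCP3 (1): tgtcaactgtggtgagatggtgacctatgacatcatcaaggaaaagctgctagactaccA
UCP3 (2): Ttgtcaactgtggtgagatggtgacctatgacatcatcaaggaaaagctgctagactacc
The SLC16A1 probes lie in different stretches of 1 transcript sequence and share no run longer than 7 bases. Together with the single probe of SLC39A13 they are shown because their values differed between slides or between tissues.
SLC16A1 (1): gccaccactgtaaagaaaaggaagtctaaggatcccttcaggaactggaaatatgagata
SLC16A1 (2): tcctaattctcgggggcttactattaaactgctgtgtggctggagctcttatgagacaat
SLC39A13: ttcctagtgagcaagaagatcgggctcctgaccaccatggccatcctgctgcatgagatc
Of the 15 pairs, 7 share 59 bases, 4 share between 20 and 58 bases and 4 share fewer than 20. Between members of different genes the longest shared run was 10 bases.

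A probe was tested in a tissue when it was above 1.1 times the 95th percentile of the negative control spots on at least 8 of the 16 arrays. In the LV 42 of the 53 member probes (79.2%) were tested, beside 76.7% of all probes, and in the IVS 43 (81.1%), beside 77.9% of all probes. Both tissues shared 41 tested members, and 28 members in the LV and 27 in the IVS were above the limit on every array. The probes above the limit on all 32 arrays included both probes of AQP1, AQP2, AQP8 and SLC2A3, SLC16A1 (2), ABCG2, the 3 zinc carriers SLC39A3, SLC39A7 and SLC39A13, and SLC25A4, SLC25A5 and SLC25A6, the ADP/ATP carriers of the inner mitochondrial membrane. The 2 probes named for AQP2, the water channel that vasopressin regulates in the kidney collecting duct, were thus above the limit in every heart sample. They share 59 bases and were not placed on a genome, so whether other transcripts add to their signal was not tested.

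The members tested in neither tissue were SLC5A1, SLC9A3, AQP9 and SLC25A10, and 1 probe each of AQP5, SLC2A5 and UCP3. SLC5A1, the sodium-glucose cotransporter, was above the limit on 0 of 16 arrays with either probe in either tissue. SLC9A3, the sodium-hydrogen exchanger of kidney and gut epithelium, passed on 7 and 5 LV arrays and on 4 and 2 IVS arrays with its 2 probes. SLC4A4, a sodium-bicarbonate cotransporter, passed on 2 LV and 9 IVS arrays, and SLC6A2, the noradrenaline carrier of sympathetic nerves, on 7 LV and 15 IVS arrays, so these 2 were tested in the IVS only. UCP3 (1), for the uncoupling protein of muscle, passed on 9 LV arrays and 7 IVS arrays, while UCP3 (2) with the same 59 bases passed on 1 and 0. The scanner software marked UCP3 (1) as well above background on 0 of the LV arrays and SLC4A4 on 1 of the IVS arrays, so their differences describe signal at the background. Some untested members were above the limit on part of the arrays, and being untested does not show that a transcript is absent. The GC content of tested and untested members had the same median of 45.0% in both tissues.

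**Figure D1:**
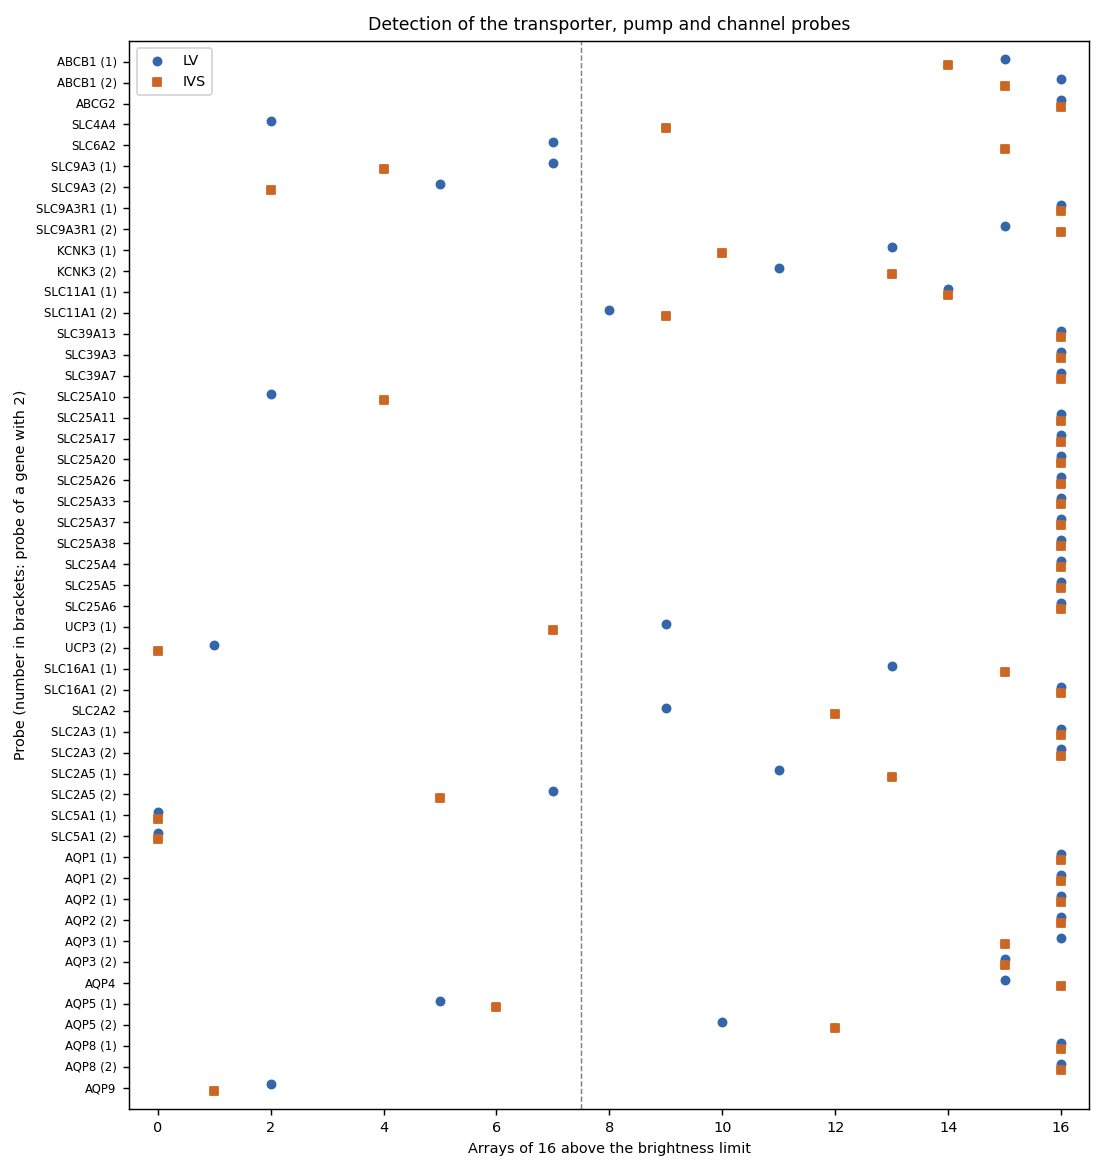
Number of arrays, of 16 per tissue, on which each member probe shown was above the brightness limit (circles, LV; squares, IVS). Points to the right of the dashed line were tested, and both probes of SLC5A1 lie at 0.

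In the LV, none of the tested member probes passed the test of CORT against Control lambs. The study's list of genes differing in the LV names other transport genes, among them SLC27A2, SLC7A1 and ATP1B3. These matched no probe name here, so they are not among the members and were not tested under their names. By limma's moderated test 0 of the 42 tested members had an unadjusted p under 0.05, the threshold of the study, beside 444 of 11517 tested probes (3.86%), and 0 probes of the whole array passed after Benjamini-Hochberg adjustment. The exact permutation test over all 12870 assignments of 8 and 8 lambs, two-sided, also called 0 members, beside 4.1% of all tested probes. The differences of the members ran from -0.21 to 0.15 on the log2 scale with a median of 0.01, beside a median of 0.00 over all tested probes, and 23 of 42 (54.8%) were higher in CORT lambs, beside 50.9% of all tested probes. The 95% interval of the difference lay within 1.5-fold in either direction for 39 of the 42 members, beside 10921 of 11517 tested probes. These intervals hold for intensity under this processing and include probes at the background, such as UCP3 (1). They therefore do not bound the change in transcript.

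In the IVS, again 0 of the 43 tested members passed at an unadjusted p under 0.05, beside 419 of 11685 probes (3.59%), with 0 probes after Benjamini-Hochberg adjustment, and 0 members by the exact permutation test beside 3.78% of all tested probes. The members' median log2 difference was 0.04, beside -0.01 over all tested probes, and 26 of 43 (60.5%) were higher in CORT lambs, beside 47.2%. The differences ran from -0.22 to 0.47, and 35 of 43 intervals lay within 1.5-fold, beside 10045 of 11685 over all tested probes. The slide accounted for a median 25.0% of the members' variance within treatment groups (34.4% over all tested probes), beside 3.48% in the LV (5.67%). The IVS arrays lay on 3 slides and the LV arrays on 2, so these shares are not directly comparable between tissues. Slides 3, 4 and 5 held 2, 3 and 3 Control arrays and 2, 2 and 4 CORT arrays, so differences within slides rest on few lambs. With slide as a block 5 IVS members passed at an unadjusted p under 0.05, beside 7.52% of all tested probes, and 0 passed after adjustment. They were KCNK3 (2), AQP8 (1), SLC25A6, SLC39A13 and SLC25A33, each higher in CORT lambs, and each is described with its values within slides.

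**Figure D2:**
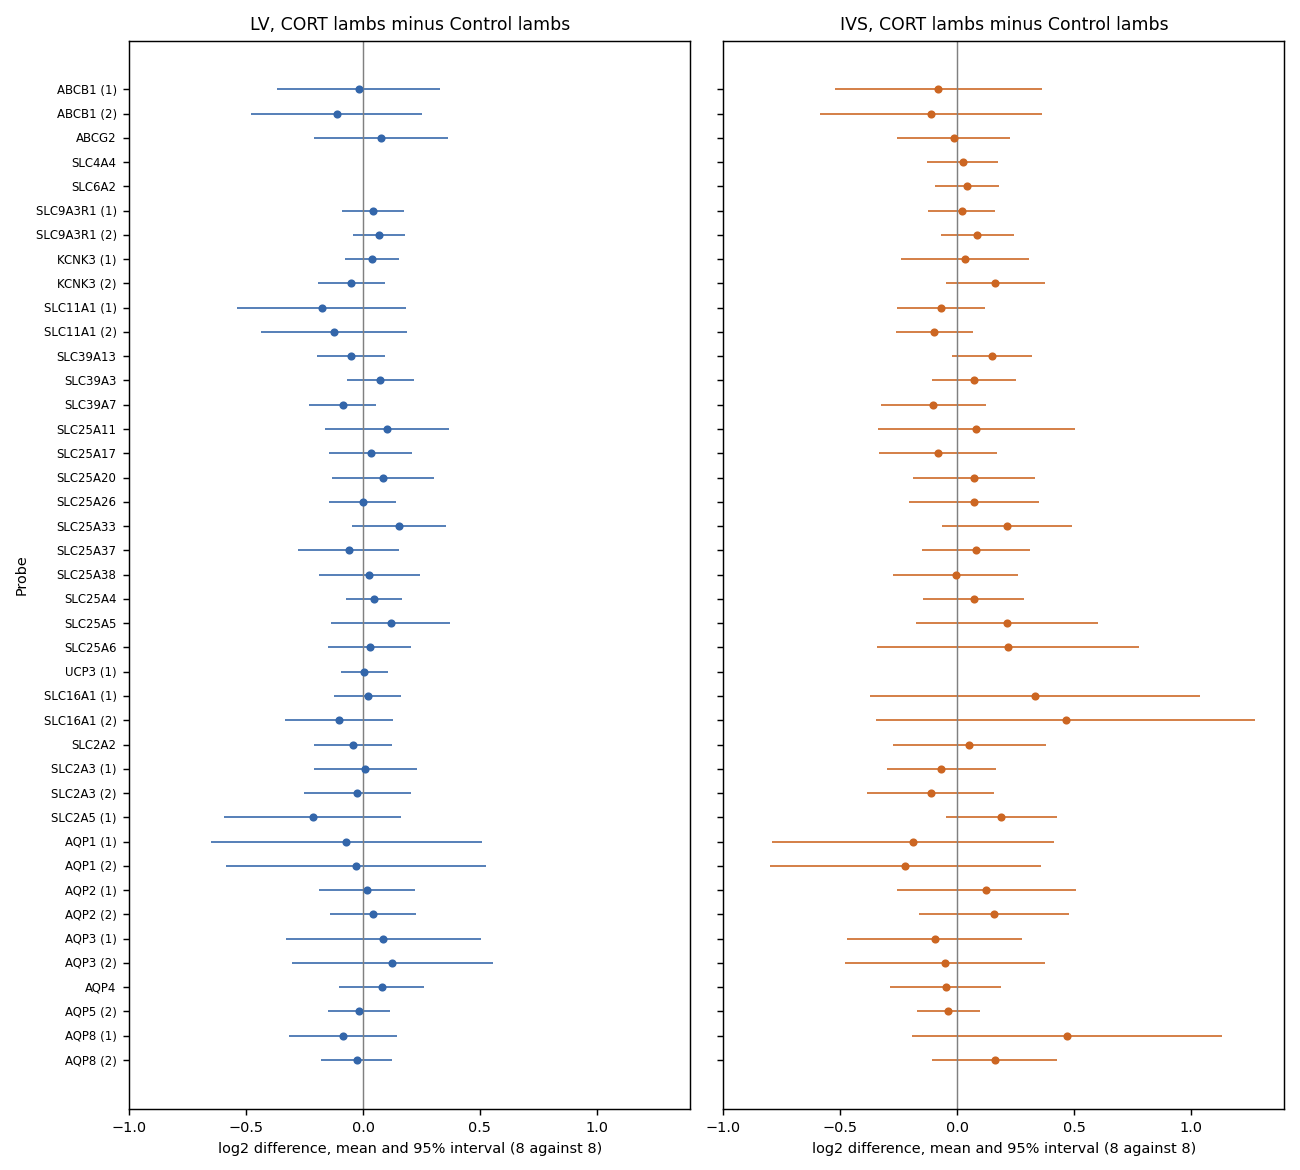
Difference between CORT and Control lambs (8 against 8) in log2 intensity for the tested members shown, in the LV and IVS, where points are differences of means and lines are 95% intervals from limma. Every interval includes 0, and the widest are those of SLC16A1, AQP1 and AQP8 (1).

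Among the channels, KCNK3, an acid-sensitive background potassium channel, lay near the brightness limit. Its second probe in the IVS ranged from 6.35 to 6.87 (median 6.78) in Control and from 6.62 to 7.34 (median 6.86) in CORT lambs. The groups overlapped, 7 of 8 CORT lambs were above the Control mean, and the difference was 0.16 ± 0.10 (SE, n = 8 per group; exact permutation p = 0.12). Within slides 3, 4 and 5 it was 0.31, 0.11 and 0.16, and limma with a block for slide gave an unadjusted p of 0.0213. Its first probe, which shares 59 bases with the second, differed by 0.03 ± 0.13, and in the LV the probes differed by 0.04 and -0.05.

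The ion exchangers and their regulators showed small differences. SLC9A3R1 (2) differed by 0.07 ± 0.05 in the LV and by 0.09 ± 0.07 in the IVS. All 3 tested probes of this class in the LV and all 5 in the IVS had a higher mean in CORT lambs, by at most 0.09. In each tissue they include both SLC9A3R1 probes, which share 59 bases and stand for a scaffold protein that is not a carrier. Over all tested probes 50.9% in the LV and 47.2% in the IVS were higher, and none of the class passed the test. In the IVS SLC6A2 differed by 0.04 and SLC4A4 by 0.02.

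The water channel AQP1 varied widely between lambs in both tissues. AQP1 (1) in the LV ranged from 7.17 to 9.06 (median 8.84) in Control lambs and from 7.58 to 9.11 (median 8.40) in CORT lambs. In the IVS it ranged from 7.52 to 9.19 (median 8.42) in Control and from 7.20 to 8.76 (median 8.43) in CORT lambs. In each tissue low and high lambs were found in both groups, and the differences were -0.07 ± 0.28 in the LV and -0.19 ± 0.29 in the IVS (log2, SE, n = 8 per group; exact permutation p = 0.815 and 0.551). Its 95% interval in the IVS ran from -0.79 to 0.42. Within the IVS slides the direction was not constant, with differences of -1.12 (slide 3), -0.85 (slide 4) and 0.87 (slide 5).

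AQP2 (1) differed by 0.02 in the LV and 0.13 in the IVS, and AQP2 (2) by 0.04 and 0.16. AQP3, a channel for water and glycerol, ranged with its first probe from 6.62 to 7.81 (median 7.01) in Control and from 6.74 to 7.80 (median 7.24) in CORT lambs in the LV, a difference of 0.09 ± 0.20, and differed by -0.10 ± 0.18 in the IVS. AQP4 differed by 0.08 in the LV and -0.05 in the IVS, and AQP5 (2) by -0.02 and -0.04. None of these water channels passed the test in either tissue.

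AQP8 (1), for a water channel of gut and liver, ranged in the IVS from 7.32 to 8.36 (median 8.09) in Control lambs and from 7.77 to 10.17 (median 7.99) in CORT lambs. CORT lambs 1 and 2, at 10.17 and 9.63, were above all other IVS samples, and both arrays lay on slide 3. The difference was 0.47 ± 0.31 (95% interval -0.19 to 1.13; exact permutation p = 0.245), and a block for slide made it 0.50 (limma, unadjusted p = 0.0389). Within slides 3, 4 and 5 the values were 1.68, 0.23 and 0.00, and without slide 3 the difference was 0.06. AQP8 (2), which shares 7 bases with the first probe, differed by 0.16 ± 0.13 in the IVS, and in the LV the probes differed by -0.09 and -0.03.

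Of the glucose carriers, SLC2A3, a high-affinity carrier, had overlapping groups with both probes. SLC2A3 (1) ranged in the LV from 13.10 to 13.92 (median 13.37) in Control and from 13.22 to 13.69 (median 13.46) in CORT lambs, and differed by 0.01 ± 0.10 (95% interval -0.21 to 0.23). In the IVS it differed by -0.07 ± 0.11, and SLC2A3 (2) differed by -0.02 in the LV and -0.11 in the IVS. SLC2A2, the carrier of liver and pancreatic islets, lay near the limit and differed by -0.05 and 0.05. SLC2A5 (1), for a fructose carrier, also lay near the limit. In the IVS it ranged from 6.37 to 6.95 (median 6.65) in Control and from 6.60 to 7.22 (median 6.75) in CORT lambs. The difference was 0.19 ± 0.11 (SE, n = 8 per group; exact permutation p = 0.122), and within slides 3, 4 and 5 it was -0.16, 0.09 and 0.42.

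SLC16A1, the carrier of lactate and pyruvate, had a narrow range in the LV and a wide one in the IVS. SLC16A1 (2) ranged in the LV from 11.95 to 12.69 (median 12.40) in Control and from 11.96 to 12.57 (median 12.28) in CORT lambs, a difference of -0.10 ± 0.11. In the IVS it ranged from 10.59 to 13.24 (median 12.02) in Control and from 11.74 to 12.91 (median 12.35) in CORT lambs. The lowest samples were Control lambs 1, 2 and 3, at 10.64, 10.59 and 10.64, below all CORT lambs, while the other Control lambs lay among them or above. The difference was 0.46 ± 0.39 (95% interval -0.35 to 1.28; exact permutation p = 0.288), the widest interval of any member. Within slides 3, 4 and 5 the values were 1.13, 0.78 and -0.40.

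The mitochondrial carriers had mostly higher means in CORT lambs, but none passed the test. The counts were 10 of 12 tested probes in the LV, beside 50.9% of all tested probes, and 9 of 11 in the IVS, beside 47.2%. They include SLC25A4, whose direction turned with the scaling, and in the LV UCP3 (1) at 0.004, which lay at the background. The class also holds SLC25A17, a peroxisomal member of the family, which differed by 0.03 in the LV and -0.08 in the IVS. The probes were measured on the same RNA, so their directions are not independent. The median log2 differences of the class were 0.04 in the LV and 0.08 in the IVS. SLC25A33, a carrier of pyrimidine nucleotides, had the lowest p of the LV members. It ranged there from 9.23 to 10.01 (median 9.72) in Control and from 9.69 to 10.04 (median 9.91) in CORT lambs. The groups overlapped, 6 of 8 CORT lambs were above the Control mean, and the difference was 0.15 ± 0.10 (95% interval -0.05 to 0.35; exact permutation p = 0.138). On slide 1 the difference was 0.03 and on slide 2 it was 0.28. Without LV Control lamb 7, the lowest of its group, it was 0.08 ± 0.08 (limma, unadjusted p = 0.286).

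In the IVS SLC25A33 ranged from 9.38 to 10.13 (median 9.86) in Control and from 9.53 to 10.34 (median 10.05) in CORT lambs. The difference was 0.21 ± 0.13 (95% interval -0.07 to 0.49; exact permutation p = 0.143), and within slides 3, 4 and 5 it was 0.28, 0.18 and 0.22. The unadjusted p from limma was 0.0161 after blocking on slide and 0.0487 after cyclic loess normalization.

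The ADP/ATP carriers export the ATP made in mitochondria. SLC25A4, the form of heart and skeletal muscle, ranked between 1 and 3 in brightness on the LV arrays and between 1 and 5 on the IVS arrays. Because quantile normalization sets such a value by its rank, 10 of 16 LV arrays carried the same value of 18.33 and 8 of 16 IVS arrays the same value of 18.48. Its difference was 0.05 in the LV and 0.07 in the IVS, 0.03 and 0.13 with scaling to the 75th percentile, and -0.14 and -0.18 with cyclic loess, so the direction turned with the scaling. SLC25A5 ranged in the LV from 11.03 to 11.82 (median 11.65) in Control and from 11.24 to 11.99 (median 11.66) in CORT lambs, and differed by 0.12 ± 0.12 there and by 0.21 ± 0.19 in the IVS. SLC25A6 differed by 0.03 ± 0.08 in the LV and by 0.22 ± 0.27 in the IVS, where the values within slides 3, 4 and 5 were 0.34, 0.38 and 0.02. SLC25A20, the carnitine-acylcarnitine carrier of fatty acid oxidation, differed by 0.08 and 0.07.

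The lowest p of the IVS members belonged to SLC39A13, a zinc carrier of internal membranes. It ranged from 8.35 to 8.85 (median 8.51) in Control lambs and from 8.42 to 8.90 (median 8.69) in CORT lambs. The groups overlapped, 7 of 8 CORT lambs were above the Control mean, and the difference was 0.15 ± 0.08 (95% interval -0.02 to 0.32; limma, unadjusted p = 0.0862; exact permutation p = 0.0645). Within slides 3, 4 and 5 the difference was 0.40, -0.03 and 0.16, and in the LV it was -0.05 ± 0.07. SLC39A7, which releases zinc from the endoplasmic reticulum, differed by -0.09 ± 0.07 in the LV and -0.10 ± 0.11 in the IVS, and the zinc importer SLC39A3 by 0.07 in each tissue.

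A single LV sample carried the difference of SLC11A1 and SLC2A5. SLC11A1, the divalent metal carrier of macrophages, was 8.13 and 7.71 with its 2 probes in Control lamb 7 and at most 6.84 and 7.01 in the other 15 LV samples. SLC2A5 was 8.12 and 8.02 in the same sample and at most 7.12 and 6.89 in the others. Of the 10 leukocyte probes sought 6 were tested, for ITGB2, CD14 and CD3E, and 5 of these had their highest LV value in this sample. ITGB2 was at 9.12 and 9.85 beside at most 8.40 and 9.02 elsewhere. The CD3E probes ranked 2 and 1 of 16, the latter at 7.22 beside at most 7.21. Of the 3 tested red cell probes both of HBB ranked 15 of 16, and the value of AHSP is not given. The share of all tested probes that were highest in this sample was not computed. The part of leukocyte content in these values was not tested. In bulk tissue more cells of a type and more RNA per cell cannot be told apart. Over all lambs SLC11A1 (1) differed by -0.18 ± 0.17 in the LV and SLC2A5 (1) by -0.21 ± 0.18, and without Control lamb 7 they differed by 0.00 and -0.04. SLC11A1 (2) was above the brightness limit on 8 of 16 LV arrays, the fewest that allowed a test. In the IVS it lay near the limit and differed by -0.10 ± 0.08.

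**Figure D3:**
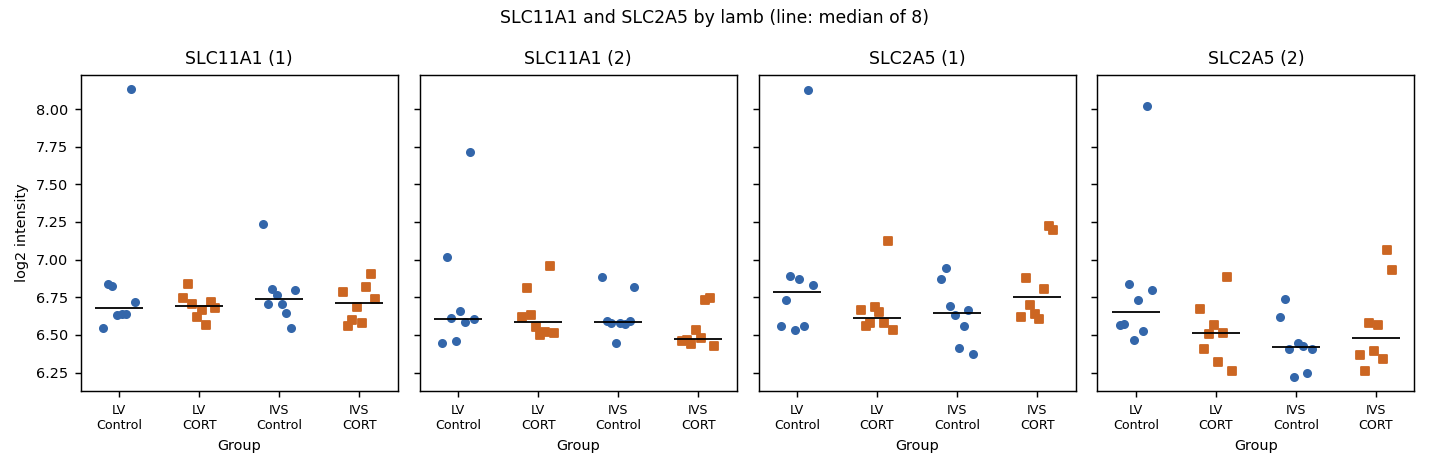
Log2 intensity of the SLC11A1 and SLC2A5 probes by lamb in the 4 groups of 8 (circles, Control; squares, CORT; line, median), with LV and IVS normalized separately. LV Control lamb 7 stands apart at 8.13, 7.71, 8.12 and 8.02.

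The ABC exporters ABCB1 and ABCG2, which pump drugs and, for ABCG2, urate out of cells, did not pass the test. ABCG2 ranged in the LV from 9.94 to 11.05 (median 10.55) in Control and from 10.14 to 10.83 (median 10.58) in CORT lambs, a difference of 0.08 ± 0.14, and differed by -0.01 ± 0.11 in the IVS. ABCB1 (1) differed by -0.02 ± 0.17 in the LV and -0.08 ± 0.21 in the IVS.

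Pairs of probes showed how much of the spread belonged to the sample. For AQP1 in the LV the SD within groups was 0.61 and 0.58 for the 2 probes, but the SD of the difference between them was 0.07, so most of the spread was shared by both probes. The same comparison in the IVS gave 0.63 and 0.60 beside 0.07. AQP3 (0.43 and 0.45 beside 0.13 in the LV) and ABCB1, whose probes share 40 bases (0.36 and 0.38 beside 0.15), behaved likewise. KCNK3 did not: its SDs in the LV were 0.10 and 0.13 and that of the difference 0.13, although its probes share 59 bases. SLC9A3R1, whose probes also share 59 bases, had 0.12 and 0.09 beside 0.13 in the LV. AQP5 and UCP3, with 1 probe tested there, did not behave like AQP1 either. Of the 10 pairs tested in each tissue, 7 in the LV and 10 in the IVS gave the same sign of the treatment difference. The probes of 1 gene were measured on the same RNA and are not replicates of the treatment.

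**Figure D4:**
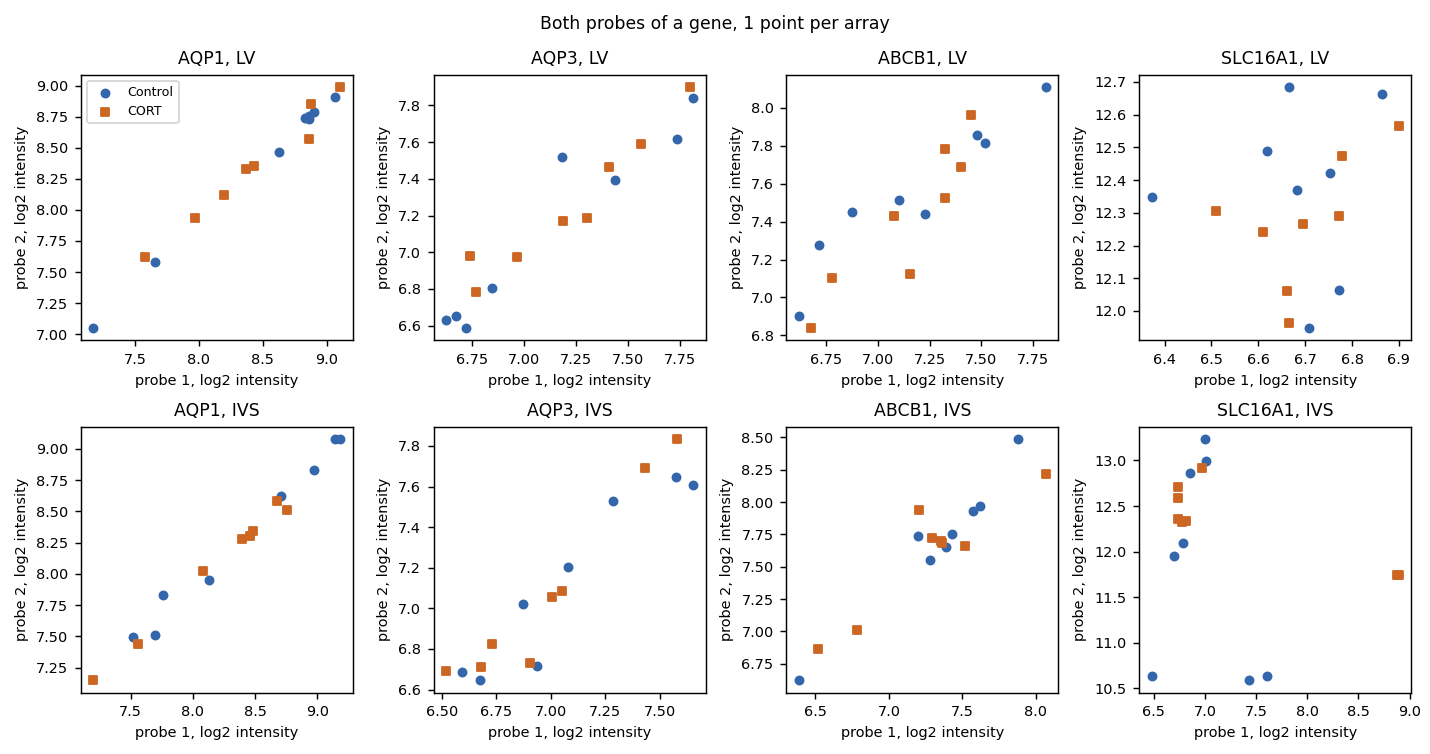
Log2 intensity of the second against the first probe of AQP1, AQP3, ABCB1 and SLC16A1, 1 point per array (circles, Control; squares, CORT), in the LV (upper row) and IVS (lower row). AQP1 lies on a line in both tissues, while the SLC16A1 probes in the IVS do not.

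The 4 IVS arrays of slide 3 (2 Control, 2 CORT) stood apart from the 12 arrays of slides 4 and 5 for 3 of 43 members, where the ranges did not overlap, beside 10.6% of all tested probes. SLC16A1 (1) was 7.43 to 8.89 on slide 3 and 6.48 to 7.01 on the others, and SLC25A6 was 14.60 to 15.25 beside 13.17 to 13.96. SLC25A38, a glycine carrier needed for haem synthesis, was 7.08 to 7.30 beside 7.30 to 7.85. SLC16A1 (2) was lower on slide 3 with a mean log2 difference of -1.24, so the probes of SLC16A1 deviated in opposite directions there. On slides 4 and 5 SLC16A1 (1) lay near the brightness limit, which was 6.49 to 6.72 on the IVS arrays, while SLC16A1 (2) averaged 12.42. The probes are therefore not readings of equal weight for this transcript. Of the variance within treatment groups in the IVS, slide accounted for 90.3% for SLC25A6, 79.3% for KCNK3 (1) and 78.4% and 66.6% for the SLC16A1 probes. What made slide 3 differ was not tested.

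The IVS and LV were compared on values normalized over all 32 arrays, with 43 members among 11519 tested probes. LV arrays lay on slides 1 and 2 and IVS arrays on slides 3, 4 and 5, so no slide held both tissues, and tissue and slide cannot be told apart. In Control lambs 5 of 43 members differed at an unadjusted p under 0.05, beside 21.7% of all tested probes. Among them SLC39A13 (-0.27), AQP2 (2) (-0.32) and SLC25A26 (-0.25), the carrier of S-adenosylmethionine, were lower in the IVS, and SLC2A3 (1) was higher (0.23). After Benjamini-Hochberg adjustment 1 member passed, SLC39A13, beside 5.08% of all tested probes. With slide as a random block 3 members passed unadjusted (SLC39A13 and SLC25A26 among them), beside 12.9%, and 0 passed after adjustment, beside 0.165%. With slide 5 alone for the IVS, an alternative chosen after seeing the data that keeps 3 IVS Control arrays, 9 members passed, beside 20.3%. Of these, 3 passed after adjustment (SLC39A13, KCNK3 (1) and SLC16A1 (2)), beside 3.8%. SLC25A5 at -0.25 and the mitochondrial iron importer SLC25A37 at -0.16 did not pass.

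SLC39A13 ranged from 8.46 to 8.87 (median 8.76) in the LV and from 8.28 to 8.77 (median 8.44) in the IVS of Control lambs. Most IVS samples were below the LV samples with some overlap, and the difference was -0.27 ± 0.07 (SE, n = 8 per tissue; limma, adjusted p = 0.03). With slide as a random block the adjusted p was 0.229. With slide 5 alone for the IVS, 3 IVS against 8 LV arrays, the difference was -0.32 (limma, adjusted p = 0.0494). In CORT lambs it was -0.07 ± 0.07, and the interaction, that is, the treatment difference in the IVS less that in the LV, was 0.20 ± 0.10 (limma, unadjusted p = 0.0657).

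In Control lambs SLC2A3 (1) went from 0.23 to -0.01 with slide 5 alone, which keeps 3 IVS arrays. SLC16A1 (2) went from -0.60 ± 0.30 to 0.57 ± 0.15, where the latter had an adjusted p of 0.0305 by limma. In CORT lambs 3 members differed between the tissues at an unadjusted p under 0.05, beside 10.6% of all tested probes, and 0 after adjustment, beside 0.408%. They included KCNK3 (2) at 0.21 ± 0.08 and SLC16A1 (1) at 0.57 ± 0.25, both near the brightness limit in the LV. With slide 5 alone KCNK3 (2) was 0.09 and SLC16A1 (1) 0.08. For the interaction 0 members passed, beside 2.02% of all tested probes, and 0 probes of the array passed after adjustment. With slide as a random block 3 members passed (KCNK3 (2), AQP8 (1) and SLC39A13), beside 3.89%, and 0 after adjustment.

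**Figure D5:**
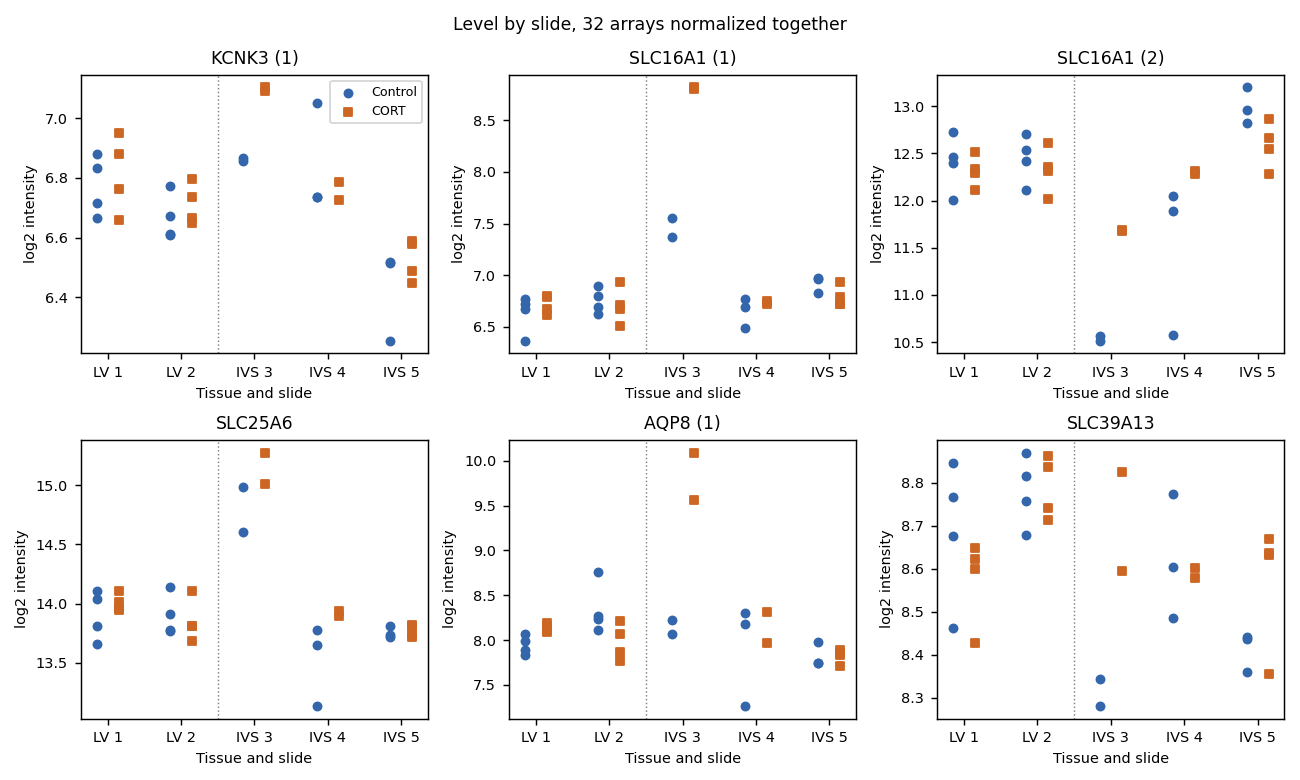
Log2 intensity of 6 members by tissue and slide after normalization of all 32 arrays together (circles, Control; squares, CORT; dotted line between LV and IVS slides). AQP8 (1) is above 9 only in the 2 CORT lambs of slide 3.

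Genes of excitation-contraction coupling were sought by a list of 40 names, chosen with earlier results of these data known, of which 4 had a tested probe. In the LV 2 of the 4 differed at an unadjusted p under 0.05, beside the 3.86% of all tested probes, and 0 after adjustment. ADRB1, the beta-1 adrenergic receptor, differed by -0.26 ± 0.10 (n = 8 per group; exact permutation p = 0.0239) and CALM2, a calmodulin gene, by 0.15 ± 0.06 (exact permutation p = 0.0256). The study already lists both genes as differing in the LV of these lambs, so the count of 2 is not independent of that list. PRKAR1A and SRI (sorcin) did not pass, and the median of the 4 was -0.06. In the IVS 0 of the 4 passed and their median was -0.03.

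Median intensity was 139 to 217 units in the LV and 131 to 332 in the IVS, and the scanner software found 59.7% to 77.6% of LV probes and 67.0% to 80.4% of IVS probes well above background. None of the 15 names of cardiomyocyte genes sought was found among the probe names, so the muscle identity of the samples was not checked by name. Of marker probes of other cells, both COL3A1 probes of fibroblasts (-0.27 and -0.28, 2 of 4 fibroblast probes) and 1 of 6 leukocyte probes passed at an unadjusted p under 0.05 in the LV, beside 3.86% of all tested probes. The DCN probes, the other fibroblast probes, differed by 0.08 and 0.02 there. No marker probe passed in the IVS. With these lists the part of other cells in the members' values was not tested, and the 8 arrays per group limited the precision.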

How the data were processed

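Per the labels and the file headers, RNA of each sample was hybridized to 1 array in 1 colour, and the authors deposited the scanner output of Agilent Feature Extraction (10.1.1.1 in the submitters' processing notes), which holds a spot's intensity and its local background. A deposited matrix of log2 values per tissue was background corrected, quantile normalized and filtered on brightness by the authors, and served only as an alternative. The labels and the methods name different dyes and RNA amounts.

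Here normexp with an offset of 50 was run on mean intensity and median background, followed by quantile normalization across a tissue's 16 arrays, or all 32 for comparisons of tissues, in limma 3.58.1 (R 4.3.3, statmod 1.5.0). Control spots and outlier flags were left out and spots averaged per probe. Probes above 1.1 times the 95th percentile of the negative controls on at least 8 of 16 arrays (16 of 32) were tested, with lmFit and eBayes, two-sided, adjusted by Benjamini-Hochberg over all tested probes. Called means an unadjusted p under 0.05. Single members also had an exact permutation test of the difference of means (12870 assignments, smallest p 0.000155). The fits were tested on simulated data.

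The members and gene lists were chosen with earlier results of these data known. Named are all pumps, channels, aquaporins, uncoupling proteins and glucose carriers, and of the other members the 5 with the lowest p per tissue and in IVS against LV, and the 3 for the interaction. Others were named to describe a class or a sample, after their values were seen. The values of some members are not reported here. Marker lists covered cardiomyocytes, endothelium, fibroblasts, smooth muscle, adipocytes, red cells, leukocytes, kidney tubule, and conduction tissue and nerve. Besides the probes reported, 0 probes of these lists passed. Gene names are those of the array. Of the members, 30 probes had an accession in the RefSeq table (ARS-UI_Ramb_v3.0), and 29 of these carry the same symbol there. The array files were not placed on a genome, so no coordinates are given. Replicates within a tissue are separate lambs, and treatment was taken from the labels. Alternatives were another offset, no background correction, scaling to the 75th percentile, cyclic loess, other brightness limits, the deposited matrices, slide and replicate blocks, array weights and leaving out each sample.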

Additional observations from a re-analysis of the deposited data

Results flagged for a closer look

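In groups of 8 samples, a value far from the other 7 was sought for each tested member, in 170 groups of values. Such a sample was found in 16, where chance at 1 in 20 would give 8.5. That rate is only a rough guide, because it takes the values as separate and without ties. Quantile normalization tied many values of SLC25A4, and some genes were counted with 2 probes. LV Control lamb 7 accounted for 5 of them: SLC11A1 at 8.133 and 7.712 with its 2 probes and SLC2A5 (1) at 8.123 were the highest of the group, and SLC25A33 at 9.235 and SLC25A4 at 18.0 the lowest. Its array had the lowest median intensity of the LV, 139. IVS Control lamb 8, whose array had the lowest median intensity of the IVS, 131, was the lowest of its group for ABCB1 (1) at 6.386, SLC25A11 at 9.636 and SLC25A4 at 17.76. In the LV of CORT lambs, lamb 7 was lowest for ABCG2 at 10.14 and highest for SLC2A5 (1) at 7.124, lamb 2 was lowest for SLC25A4 at 18.13, lamb 4 highest for SLC9A3R1 (1) at 7.327 and lamb 5 highest for SLC25A38 at 8.228. In the IVS, CORT lamb 2 was lowest for SLC2A3 (1) at 13.18, Control lamb 1 highest for SLC11A1 (1) at 7.234 and Control lamb 7 lowest for KCNK3 (2) at 6.347. The cause of these values was not tested.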

How the results depend on the processing

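In the LV the count of members called was 0 under each of the 10 alternatives and without each of the 16 samples in turn. In the IVS it was 0 for the value reported, 5 with slide as a block, 2 with arrays weighted by quality (SLC2A5 (1) among them), 1 with cyclic loess (SLC25A33), 1 without slide 3 (SLC2A5 (1), chosen after seeing the data), 0 to 1 without each sample in turn, and 0 in the other alternatives. With the replicate block it was 2 (SLC25A6 and SLC25A33), beside 5.47% of all probes. The labels do not say that a replicate number marks a lamb or a batch, and the numbers were not taken to pair the samples, since not every same-numbered pair correlated over 0.1. Between treatments 3 of 8 pairs did in the LV and 6 of 8 in the IVS, with 2 and 1 of 8 best with their own number. Between tissues 2 of 8 did in Control and 5 of 8 in CORT lambs (r up to 0.637), with 2 and 4 of 8 best, so a pairing by lamb is not settled. Across tissues the replicate block gave 6, 3 and 0 members in Control lambs, CORT lambs and the interaction.

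By the exact permutation test 0 members of either tissue passed, 1 with cyclic loess (IVS) and 1 with no brightness limit (SLC9A3 (2), IVS). IVS against LV in Control lambs gave 5 members, 9 with scaling to the 75th percentile, 3 with slide as a random block and 9 with slide 5 alone. In CORT lambs it gave 3, and 1 when the limit had to be passed on all 32 arrays. The interaction gave 0, 3 with slide as a random block and 2 with slide 5 alone (AQP4 among them). With slide 5 alone SLC16A1 (2) turned from -0.60 to 0.57 and SLC2A3 (1) from 0.23 to -0.0061. The cause was not tested. The counts of coupling genes did not move with slide as a block or cyclic loess. Blocks, array weights and leaving out samples were run in limma only, not with the exact test. Many channel and exchanger probes lay near the negative controls, where a difference in transcript is compressed.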
